A study of Mus musculus with 12 samples.

Results

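The 10 genes described here code for proteins that act on the Hippo pathway from cell junctions and the cortex: the KIBRA family (Wwc1, Wwc2), the angiomotins (Amot, Amotl1, Amotl2), the Ajuba family of LIM-domain proteins (Ajuba, Limd1, Wtip), and the YAP regulators Frmd6 and Ptpn14. They were found by gene symbol, and all 10 were present among the 22290 genes listed at both ages. RNA sequencing libraries were made from primary mouse cells labelled as podocytes, the epithelial cells whose foot processes wrap the capillaries of the glomerulus. All mice, knockouts and controls alike, carried floxed Nsd2 alleles and had diabetic injury induced with HFD/STZ (high-fat diet and streptozotocin). Knockouts were Cre+/Nsd2fl/fl and controls Cre-/Nsd2fl/fl, taken at 20 or 28 weeks of age, with 3 libraries in each of the 4 groups. Nsd2 codes for a histone H3 lysine 36 methyltransferase. The knockout is described as specific to podocytes, the promoter that drives Cre is not stated, no group carries Cre without the floxed alleles, and mice without diabetes were not analysed here. Whether libraries within a group are from different animals is not stated, and p-values here therefore rest on the variation between libraries, which could be technical only.

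In the Hippo pathway, the kinases MST1 and MST2 activate LATS1 and LATS2, which phosphorylate the coactivators YAP and TAZ and keep them out of the nucleus, where they would act with TEAD factors. KIBRA, the product of Wwc1, promotes LATS activation, binds the podocyte actin protein synaptopodin and the polarity protein PATJ, and is studied in podocyte injury. Angiomotins hold YAP at tight junctions and on actin through PPxY motifs and also activate LATS, whereas AJUBA, LIMD1 and WTIP bind LATS kinases and restrain them. PTPN14 binds YAP and promotes its retention in the cytoplasm, and FRMD6 (willin) is a relative of the fly regulator Expanded. Wtip was named for its product's binding to the podocyte transcription factor WT1.

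Promoter sequence is shown first because several of these genes, among them Amotl2, Ajuba and Ptpn14, are known both as regulators and as targets of YAP, which reaches DNA through TEAD factors. The 250 bases before 1 RefSeq start of each gene were searched for the TEAD core CATTCC on both strands (GGAATG when read on the gene's strand). RefSeq promoters on GRCm38.p6 were at hand for 9 of the 10 genes, all but Limd1. Some of these starts are not the ends of the gene spans given below. Those of Amot (145487639), Amotl1 (14615000), Amotl2 (102717804) and Wwc2 (47990544) lie inside the span, and that of Ajuba (54577661) lies outside it. Other starts of these genes were not searched. The core was found in 5 of the 9, against 12.6% of all 32851 mouse promoters of the same length. Ajuba had 2 copies, at 186 and 164 bases before its start, Ptpn14 had 1 at 146, Wtip had 4, Amotl2 had 1 and Wwc2 had 3. No copy lay in these windows of Wwc1, Amot, Amotl1 or Frmd6. The stretches that hold the copies are given 5′ to 3′ on the gene's strand with the core in capitals, in full for Wtip and in part for the other genes. The stretch of Wwc2 holds 2 of its 3 copies. The 100 bases before the start of Wwc1 are given as a stretch without a match. The Amotl2 and Wwc2 stretches lie in bases that GENCODE lists as exonic.
Ajuba, chr14:54577773-54577894, minus strand: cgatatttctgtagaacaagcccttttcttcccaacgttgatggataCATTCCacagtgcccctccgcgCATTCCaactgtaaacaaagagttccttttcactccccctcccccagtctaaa
Ptpn14, chr1:189728075-189728174, plus strand: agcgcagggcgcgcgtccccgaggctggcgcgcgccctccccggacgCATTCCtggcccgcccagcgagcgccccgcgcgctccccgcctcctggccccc
Wtip, chr7:34133269-34133518, minus strand: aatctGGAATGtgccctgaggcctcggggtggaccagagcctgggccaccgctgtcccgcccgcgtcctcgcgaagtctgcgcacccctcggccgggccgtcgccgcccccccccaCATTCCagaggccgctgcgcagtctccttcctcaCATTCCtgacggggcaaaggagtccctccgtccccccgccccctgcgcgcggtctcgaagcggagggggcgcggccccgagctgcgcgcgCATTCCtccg
Amotl2, chr9:102717727-102717756, plus strand: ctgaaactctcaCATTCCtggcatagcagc
Wwc2, chr8:47990614-47990642, minus strand: ctcaGGAATGtggcggcgaGGAATGtgca
Wwc1, chr11:35980528-35980627, minus strand: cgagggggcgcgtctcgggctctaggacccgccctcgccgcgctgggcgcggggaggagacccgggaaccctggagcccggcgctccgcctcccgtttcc
The GC content of the 250 bases ran from 44.8% in Amot to 80.8% in Ptpn14, with a median of 52.4% over all promoters. A match is a description of letters and was not tested as a binding site.

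Libraries held 31405349 to 38989180 counts, and the lowest count of any of the 10 genes in any library was 1270 (Amot). Levels below are counts-per-million on TMM-scaled library sizes (CPM), unless a level per gene length (FPKM) is named. Nsd2, the targeted gene, had a mean level of 79.9 ± 13.8 CPM in controls and of 43.6 ± 8.91 in knockouts at 20 weeks (SD, n = 3 each; log2 fold change -0.88, adjusted p = 0.0402), and at 81.6 ± 4.96 and 37.8 ± 4.41 at 28 weeks (-1.11, adjusted p = 0.00431), by edgeR's quasi-likelihood test with Benjamini-Hochberg adjustment over all genes. Its call at 20 weeks ended without any 1 of control 1, 2 or 3 or knockout 2 or 3 (adjusted p = 0.0729 to 0.164). Controls 2 and 3 at 28 weeks differed by a mean chi-square of 4.8 per gene, where sampling noise alone gives 1 and the other 11 pairs within a group gave 81.6 to 245, and they are kept as separate libraries here. All 10 podocyte markers had reads in every library, but Nphs1, which codes for nephrin, was at only 0.914 to 15.2 CPM. Summed contractile markers exceeded the podocyte sum in every library (4228 to 4788 CPM in controls and 9617 to 13530 in knockouts at 20 weeks, 2846 to 3162 and 6951 to 15660 at 28 weeks). Summed podocyte markers were at 1115 to 1583 and 2569 to 3179 CPM at 20 weeks and at 1258 to 2266 and 942.9 to 2838 at 28 weeks. In bulk libraries, fewer cells of a type and less RNA per cell cannot be told apart.

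At 28 weeks, Wwc1, Amot, Amotl1 and Ajuba fell in the knockout libraries, by between 2- and 6.12-fold, and no gene of the 10 rose. Within each family the fall did not extend to all relatives: Wwc2, Amotl2, Limd1 and Wtip did not pass the test, nor did Frmd6 or Ptpn14. At this age 21.2% of the 15011 genes tested were called, 11.9% lower and 9.33% higher, against 4 lower and 0 higher of the 10 regulators. The same 4 of the 10 had an unadjusted p below 0.05, beside 34.8% of all genes. The median log2 fold change of the 10 was -0.27, beside 0.07 over all genes tested, and 8 of the 10 values were negative. In 5 of the 10 (these 4 and Limd1) every knockout library lay below every control, as it did for 22.8% of all genes. At 20 weeks none of the 10 was called, where 9.92% of 14853 genes were called, 5.13% lower and 4.79% higher. At an unadjusted p below 0.05 there were 3 of the 10 (Wwc1, Amot and Amotl1), beside 25% of all genes, and DESeq2 called 0 of the 10, beside 16.4% of all genes. The median of the 10 was 0.01 at 20 weeks, as it was over all genes.

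**Figure D1:**
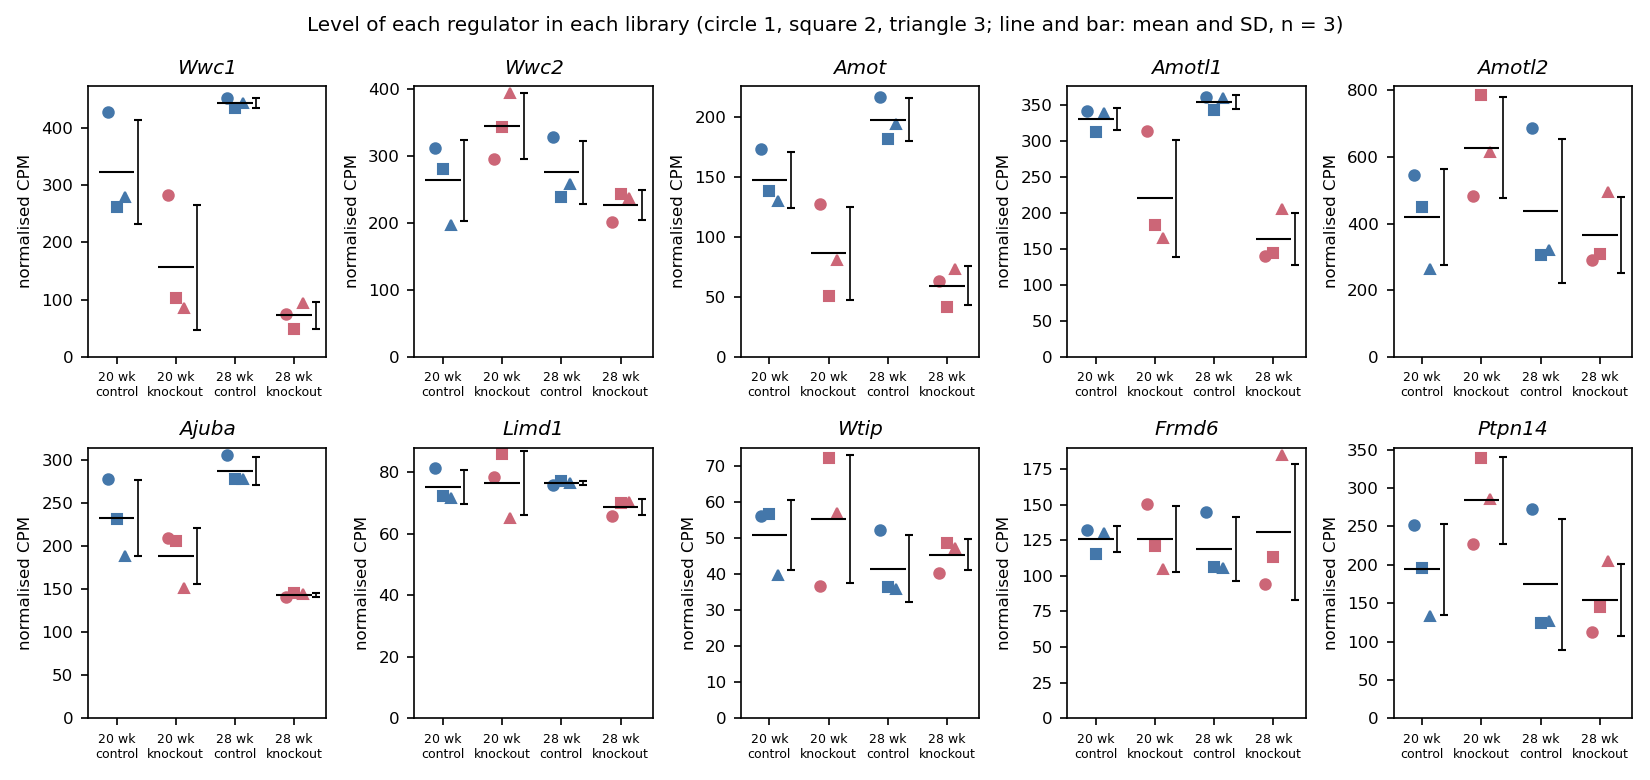
Normalised CPM (vertical axis) of each of the 10 regulators in the 12 libraries, by genotype and age, with a circle, square or triangle for replicate 1, 2 or 3 and a line and bar for the group mean and SD (n = 3). At 28 weeks the knockout points of Wwc1, Amot, Amotl1, Ajuba and Limd1 all lie below the control points; at 20 weeks knockout 1 lies among or near the controls for Wwc1, Amot and Amotl1.

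Wwc1 (chr11:35838400-35980527, minus strand, GRCm38) codes for KIBRA, a WW-domain scaffold upstream of LATS. At 28 weeks it was at 452, 434 and 444 CPM in controls 1, 2 and 3 and at 74.2, 48.6 and 94.6 in knockouts 1, 2 and 3. The controls were close together and the highest knockout was far below the lowest control. The log2 fold change was -2.61 (SE 0.25, adjusted p = 0.00324, edgeR), a 6.12-fold lower level, and Wwc1 ranked 124th by p of the 15011 genes. At 20 weeks the controls were at 427, 262 and 278 CPM and the knockouts at 282, 103 and 84.4. Knockout 1 lay inside the range of the controls and the other 2 knockouts lay well below it. The log2 fold change with all libraries was -1.04 (SE 0.45, adjusted p = 0.194, edgeR), which did not pass.

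Wwc2 (chr8:47823959-47990924, minus strand) codes for the closest relative of KIBRA, which also binds LATS kinases. Its exons share 995 bases with Cldn22 on the opposite strand, and whether the counting used strand is not stated. Wwc2 was at 329, 240 and 259 CPM in controls and 202, 243 and 237 in knockouts at 28 weeks, so the groups overlapped. At 20 weeks it was at 313, 281 and 197 CPM in controls and 296, 343 and 395 in knockouts, again with overlap. The log2 fold changes were 0.39 (SE 0.21, adjusted p = 0.313) at 20 weeks and -0.28 (SE 0.16, adjusted p = 0.278) at 28 weeks.

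The composition of the WWC pair differed between the genotypes. Per gene length, Wwc1 made up 66.4%, 72.2% and 71.1% of the summed FPKM of Wwc1 and Wwc2 in controls at 28 weeks and 34.6%, 22.3% and 36.4% in knockouts. At 20 weeks its share was 66.2%, 57.2% and 67.0% in controls, as against 57.7%, 30.1% and 23.5% in knockouts. By these values Wwc1 was above Wwc2 in every control and in knockout 1 at 20 weeks, and below it in the other 5 knockouts. The order rests on the gene length: the deposited FPKM use 6625 bases for Wwc2, where GENCODE lists 13784 exonic bases. With exonic lengths, tried after the data were seen, the ratio of Wwc1 to Wwc2 was 1.02 and 1.11 in knockouts 1 and 3 at 28 weeks, so the order turned there, and the difference in log ratio between genotypes is the same with either length. The summed FPKM of the pair at 28 weeks was 137 to 148 in controls and 44.8 to 55.4 in knockouts, with no overlap.

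Amot (chrX:145446425-145505181, minus strand) codes for angiomotin, which has a long form that binds actin and YAP. It was at 217, 182 and 195 CPM in controls and at 63.3, 41.9 and 73.1 in knockouts at 28 weeks. Every knockout was below every control there, and the log2 fold change was -1.74 (SE 0.22, adjusted p = 0.00539, edgeR), 3.33-fold lower. At 20 weeks the controls were at 174, 138 and 130 CPM and the knockouts at 128, 50.4 and 80.5. The groups did not overlap there either, but knockout 1 lay just under the lowest control. Amot was the only 1 of the 10 with all knockouts below all controls at 20 weeks, as were 16.7% of all genes. Its log2 fold change there was -0.77 (SE 0.32, adjusted p = 0.178), which did not pass.

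Amotl1 (chr9:14541966-14645056, minus strand) codes for a tight junction relative of angiomotin. It was at 362, 344 and 360.0 CPM in controls and 140.2, 145 and 206 in knockouts at 28 weeks. Controls lay within a narrow range and knockout 3 was the highest of the knockouts. The log2 fold change was -1.12 (SE 0.17, adjusted p = 0.0083, edgeR), 2.17-fold lower. At 20 weeks the controls were at 342, 313 and 339 CPM and the knockouts at 314, 183 and 165, with knockout 1 again at the level of the controls. The log2 fold change there was -0.58 (SE 0.25, adjusted p = 0.193), which did not pass.

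Amotl2 (chr9:102716672-102733418, plus strand) codes for the third angiomotin, which links junctions to actin and is a known YAP target.  At 20 weeks it was at 546, 449 and 264 CPM in controls and 484, 785 and 615 in knockouts (log2 fold change 0.58, SE 0.29, adjusted p = 0.267). At 28 weeks it was at 687, 305 and 321 CPM in controls and 290, 309 and 496 in knockouts (log2 fold change -0.26, SE 0.38, adjusted p = 0.679). The groups overlapped at both ages, and at 28 weeks control 1 stood above all other libraries of that age. Amotl2 made up 72.0%, 55.9% and 55.8% of the summed angiomotin FPKM in controls at 28 weeks and 75.9%, 79.1% and 80.0% in knockouts. The share of Amot was 12.8%, 18.7% and 19.0% in these controls and 9.31%, 6.02% and 6.62% in these knockouts.

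Ajuba (chr14:54567472-54577558, minus strand) codes for a LIM-domain protein that is recruited to junctions under tension and holds LATS there in an inactive state. Of the 4 genes that fell at 28 weeks it had the smallest standard error. The controls were at 307, 278 and 279 CPM and the knockouts at 141, 145 and 145, which is 288 ± 16.3 and 144 ± 2.24 (SD, n = 3 each). The log2 fold change was -1.002 (SE 0.10, adjusted p = 0.00351, edgeR), a 2-fold lower level, and Ajuba ranked 180th by p. At 20 weeks it was at 278, 232 and 189 CPM in controls and 209, 206 and 152 in knockouts. The groups overlapped there, with a log2 fold change of -0.30 (SE 0.21, adjusted p = 0.424).

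Limd1 (chr9:123478706-123521552, plus strand) codes for a LIM protein that binds LATS as AJUBA does. It had a narrow spread at 28 weeks, with 75.7, 77.0 and 76.6 CPM in controls and 65.6, 70.1 and 70.1 in knockouts. The groups did not overlap, yet the log2 fold change of -0.16 (SE 0.09, adjusted p = 0.298) did not pass. At 20 weeks Limd1 was at 81.4, 72.2 and 71.7 CPM in controls and 78.5, 85.7 and 65.1 in knockouts (log2 fold change 0.03, SE 0.17, adjusted p = 0.951). Wtip (chr7:34109543-34133268, minus strand) was at 56.1, 56.8 and 39.7 CPM in controls and 36.7, 72.3 and 57.0 in knockouts at 20 weeks, and at 52.2, 36.6 and 35.95 and 40.4, 48.7 and 47.3 at 28 weeks. Its groups overlapped at both ages, with log2 fold changes of 0.12 (SE 0.27, adjusted p = 0.84) and 0.13 (SE 0.18, adjusted p = 0.673). Ajuba made up 69.3%, 71.9% and 72.2% of the summed FPKM of the 3 LIM genes in controls at 28 weeks and 56.4%, 53.5% and 53.9% in knockouts, so it remained the most abundant of them per length in all these libraries.

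Ptpn14 (chr1:189728268-189876695, plus strand) codes for a tyrosine phosphatase that binds YAP through PPxY motifs. Its exons share 177 bases with the antisense gene Gm26574. It was at 252, 196 and 133 CPM in controls and 227, 340 and 285 in knockouts at 20 weeks (log2 fold change 0.55, SE 0.26, adjusted p = 0.235). At 28 weeks it was at 273, 124 and 126 CPM in controls and 112, 145 and 205 in knockouts (-0.18, SE 0.38, adjusted p = 0.783). Control 1 was the highest library of its group at both ages, and the groups overlapped. Frmd6 (chr12:70825514-70902234, plus strand) codes for a FERM-domain protein that activates Hippo kinases in mammalian cells. It was at 132, 116 and 130 CPM in controls and 151, 121 and 105 in knockouts at 20 weeks, and at 145, 106 and 105 and 94.5, 113 and 185 at 28 weeks. Its log2 fold changes were -0.01 (SE 0.18, adjusted p = 0.991) and 0.14 (SE 0.28, adjusted p = 0.77), with the groups overlapping at both ages.

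**Figure D2:**
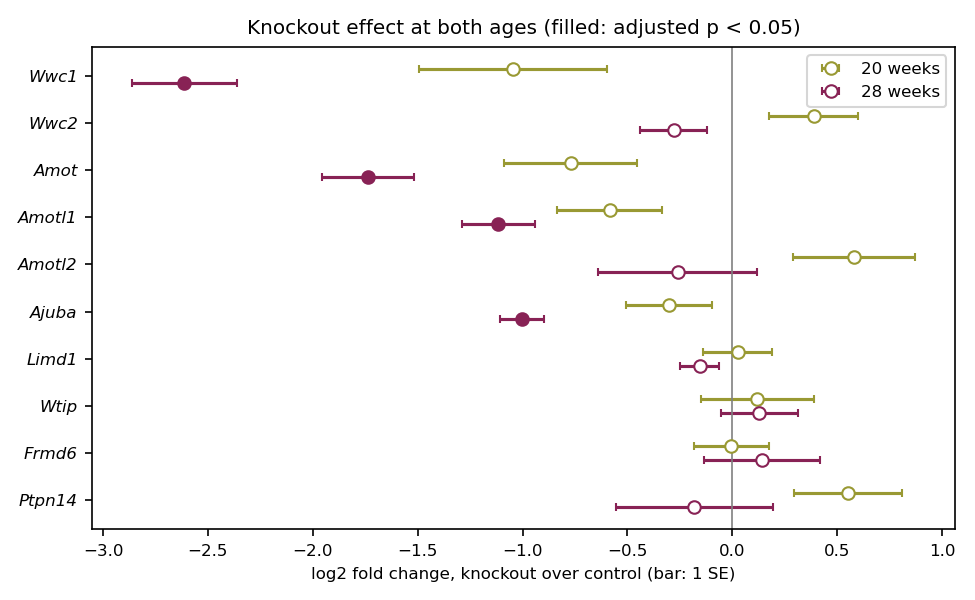
Log2 fold change of knockout over control (horizontal axis, bar 1 SE) of each of the 10 regulators at 20 and 28 weeks, 3 libraries a group. Filled points passed an adjusted p of 0.05: Wwc1 (-2.61), Amot (-1.74), Amotl1 (-1.12) and Ajuba (-1.002) at 28 weeks, and none at 20 weeks.

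Knockout 1 bore on the result at 20 weeks. Without it, 3 of the 10 fell at that age by edgeR's quasi-likelihood test: Wwc1 (log2 fold change -1.78, adjusted p = 0.0046), Amot (-1.16, adjusted p = 0.0232) and Amotl1 (-0.92, adjusted p = 0.0155). Of all 15286 genes tested without that library, 8.13% fell. At 28 weeks the same 4 genes were called whichever library was left out, and also when controls 2 and 3 were summed as 1 library, where 5.51% of all genes fell.

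Whether 2 relatives moved apart was tested on their log2 FPKM ratio within each library, which cancels the depth of the library. Genotype labels were permuted within each age in an exact two-sided test over both ages, where 400 arrangements allow a smallest p of 0.005, and p-values were adjusted over the 7 pairs. Within 1 age, an exact test of 3 against 3 libraries cannot go below p = 0.1. The ratio of Wwc1 to Wwc2 was lower in knockouts by 1.63 on the log2 scale at 20 weeks and by 2.40 at 28 weeks (exact permutation p = 0.01, adjusted p = 0.0175). In linear terms it was 1.96, 1.34 and 2.03 in controls and 1.37, 0.43 and 0.307 in knockouts at 20 weeks, and 1.97, 2.60 and 2.46 and 0.528, 0.287 and 0.573 at 28 weeks. Knockout 1 at 20 weeks was the only knockout inside the control range.

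Among the angiomotins, the ratio of Amot to Amotl2 differed between knockouts and controls by -1.48 and -1.57 at the 2 ages (exact permutation p = 0.005, adjusted p = 0.0175). That of Amotl1 to Amotl2 differed by -1.26 and -0.94 (exact permutation p = 0.01, adjusted p = 0.0175). Both ratios were thus lower on average in knockouts at both ages. At 20 weeks the groups overlapped for Amotl1 to Amotl2, with knockout 1 at 0.262 and control 1 at 0.252. The ratio of Amot to Amotl1, the 2 angiomotins that fell, differed by -0.22 and -0.63 (exact permutation p = 0.045, adjusted p = 0.0525) and did not pass. It passed when control 3 at 20 weeks (adjusted p = 0.035), knockout 3 at 20 weeks (0.021) or knockout 1 at 28 weeks (0.0467) was left out. Among the LIM genes, the ratio of Ajuba to Limd1 differed by -0.32 and -0.84 (exact permutation p = 0.01, adjusted p = 0.0175). That of Ajuba to Wtip differed by -0.38 and -1.15 (exact permutation p = 0.02, adjusted p = 0.028), and this call ended without knockout 2 at 20 weeks (adjusted p = 0.056). At 20 weeks knockout 1 stood at 3.22 for Ajuba to Wtip, above all controls (2.30 to 2.79). For Ajuba to Limd1 it stood at 4.67 there, above control 3 at 4.62. The ratio of Limd1 to Wtip differed by -0.07 and -0.30 (exact permutation p = 0.35 before and after adjustment). With controls 2 and 3 at 28 weeks averaged as 1 library, the same 5 ratios passed. In each pair that passed, the gene whose level fell at 28 weeks was the one that lost ground to its relative. Ratios and fold changes come from the same libraries, so this direction follows from the fold changes and is not separate support.

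**Figure D3:**
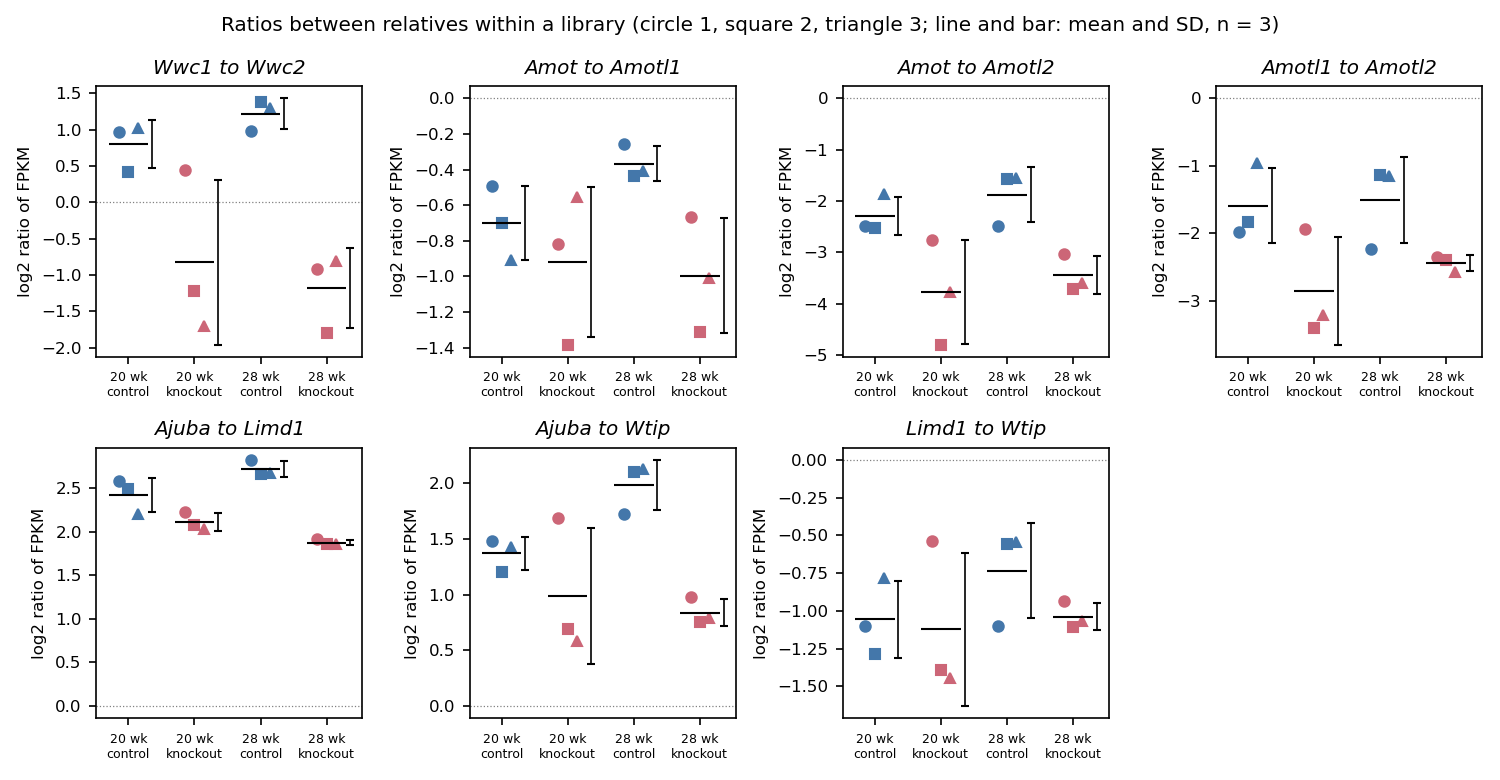
Log2 ratio of FPKM (vertical axis) between pairs of relatives within each library, by genotype and age, with markers for replicates 1, 2 and 3 and a line and bar for the mean and SD (n = 3). At 28 weeks the knockout points lie below the control points in every pair but Limd1 to Wtip, and the dotted line marks equal levels.

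Per gene length, with the lengths behind the deposited FPKM, Wwc1 had a lower place in the order of the 10 genes in knockouts. In controls at 28 weeks Wwc1 (98.8 ± 0.517 FPKM), Amotl2 (91.6 ± 42.9) and Ajuba (84.5 ± 2.92, SD, n = 3 each) were highest and neighbours among them overlapped. Wwc2 followed at 42.7 ± 6.21 and Amotl1 at 30.2 ± 0.465, each apart from its neighbours. Amot at 23.4 ± 1.54, Frmd6 at 21.7 ± 3.61, Wtip at 21.6 ± 4.26, Ptpn14 at 15.5 ± 7.22 and Limd1 at 12.8 ± 0.423 overlapped in turn. In knockouts at 28 weeks Amotl2 led at 72.9 ± 23.7 FPKM, followed by Ajuba at 39.9 ± 0.942 and Wwc2 at 33.4 ± 3.47. Wwc1 was the sixth there at 15.3 ± 5.01 FPKM, overlapping Wtip above it and Amotl1 below it, and Amot was the lowest at 6.66 ± 1.85, apart from Limd1 at 10.9 ± 0.495. At 20 weeks the order in controls was Amotl2 (89.5 ± 33.1 FPKM), Wwc1 (72.6 ± 23.3) and Ajuba (69.0 ± 15.6), then Wwc2 (41.3 ± 10.5). In knockouts at 20 weeks Wwc1 was the fourth, at 32.7 ± 22.7 FPKM, and overlapped Wwc2 above it and Wtip below it.

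The knockout effect on Wwc1, Amot and Ajuba was more negative at 28 than at 20 weeks, but none of these changes passed. In the model of all 12 libraries the change of the effect was -1.57 on the log2 scale for Wwc1 (unadjusted p = 0.0246, edgeR adjusted p = 0.538), -0.97 for Amot (adjusted p = 0.552) and -0.69 for Ajuba (unadjusted p = 0.0141, adjusted p = 0.538). Of the 10 genes 0 were called for it, as were 0% of 15662 genes. At an unadjusted p below 0.05 there were 3 of the 10 (Wwc1, Wwc2 and Ajuba) and 9.12% of all genes. DESeq2 called 34 genes (0.217%), none of the 10. Each age was deposited as its own table, and any difference in handling between the tables cannot be told apart from age.

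Within knockouts, 28 against 20 weeks gave 0 calls among the 10 and 0% of all genes, with 4 of the 10 (Wwc1, Wwc2, Ajuba and Ptpn14) and 11.2% of all genes at an unadjusted p below 0.05. The log2 changes were -1.10 for Wwc1 (edgeR adjusted p = 0.429), -0.58 for Wwc2, -0.85 for Ptpn14 and -0.37 for Ajuba (adjusted p = 0.442). DESeq2 called 40 genes (0.255%), none of the 10. Within controls, 28 against 20 weeks gave 0 calls and 0% of all genes, with 0 of the 10 and 2.98% of all genes at an unadjusted p below 0.05, and DESeq2 called 1 gene (0.00638%), none of the 10. The log2 changes of Wwc1, Amot and Ajuba in controls were 0.47, 0.44 and 0.32. Controls and knockouts differed in sign for Wwc1 and Ajuba, and likewise for Amot (-0.53 in knockouts), Wwc2, Amotl1, Amotl2 and Limd1. Frmd6 differed the other way round (-0.07 in controls and 0.08 in knockouts), and Wtip and Ptpn14 were negative in both. Neither contrast passed for any of the 10.

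Of 12 genes of the Hippo kinase cassette and kinases or scaffolds that act on it (among them Stk3, Stk4, Sav1, Lats1 and Lats2) none was called at either age by edgeR, with 1 at 20 weeks and 4 at 28 weeks at an unadjusted p below 0.05. DESeq2 called 0 at 20 weeks and 1 in each direction at 28 weeks. At 28 weeks every knockout lay below every control for Taok1, Lats1 (log2 fold change -0.44, adjusted p = 0.107), Nf2 (-0.31, adjusted p = 0.133) and Stk4 (-0.19, adjusted p = 0.257), none of which passed. The same held for 22.8% of all genes. For Sav1 every knockout (95.6 to 120.3 CPM) lay above every control (79.5 to 89.0 CPM) at that age. The median log2 fold changes of the cassette were 0.13 and -0.13, beside 0.01 and 0.07 over all genes. The smallest p-values at 28 weeks were those of Taok1, a kinase that activates MST kinases (log2 fold change -0.50, adjusted p = 0.0773), and Sav1, the scaffold of MST kinases (0.37, adjusted p = 0.0786). Taok1 passed without knockout 3 (adjusted p = 0.0304) and Sav1 without knockout 1 (adjusted p = 0.0321).

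Of 7 effector genes (Yap1, Wwtr1, the TEAD genes and Vgll4) none was called at 20 weeks by edgeR, with 1 at an unadjusted p below 0.05 and 1 called by DESeq2. At 28 weeks 1 of the 7 fell, Tead4 (log2 fold change -1.76, SE 0.20, adjusted p = 0.00426), which codes for a DNA-binding partner of YAP. At 20 weeks Tead4 passed in 3 of 12 alternatives and not in the other 9. The 3 were DESeq2's Wald test (-1.11, adjusted p = 0.0161), edgeR's model of all 12 libraries (-1.14, adjusted p = 0.0247) and edgeR without control 3 (-1.34, adjusted p = 0.0385). Yap1 had log2 fold changes of 0.32 (adjusted p = 0.229) and 0.23 (adjusted p = 0.569) at the 2 ages, and Wwtr1, which codes for TAZ, had 0.32 (adjusted p = 0.261) at 28 weeks. At 20 weeks every knockout lay above every control for Yap1 (187.8 to 210.9 against 146.7 to 172.5 CPM). The same held there for Wwtr1 (224.9 to 278.9 against 176.1 to 206.2 CPM). At 28 weeks the groups overlapped for both. Neither coactivator transcript passed the test at either age.

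Among 16 junction and polarity partners, which form the complexes that angiomotins and KIBRA bind, 8 fell and 0 rose at 28 weeks, with a median log2 fold change of -0.66. Patj, the gene for the polarity protein that binds angiomotins and KIBRA, was at 111, 85.7 and 86.5 CPM in controls and 14.6, 13.7 and 18.7 in knockouts (log2 fold change -2.59, SE 0.18, adjusted p = 0.0021). The knockouts lay far below the controls. Others that fell were Afdn, Cd2ap, Magi3, Magi1, Pard3 and Ctnna1. The count was 5 without control 2 or control 3, 6 to 9 without any other 1 library, and 5 with controls 2 and 3 summed. The share of all genes that fell moved too, from 11.9% to 5.48% without control 2, 5.36% without control 3 and 5.51% with both summed, and was 7.09% to 12.3% without any other 1 library. At 20 weeks 1 of the 16 rose (Synpo, the gene for synaptopodin, 1.58) and 1 fell (Crb3, an apical polarity gene, -3.55), the first only with control 2 (adjusted p = 0.0508 without it). Neither passed in the model of all 12 libraries (adjusted p = 0.16 for Synpo and 0.0639 for Crb3). At that age Patj was at 65.8, 57.8 and 57.8 CPM in controls and 52.4, 22.5 and 20.96 in knockouts. Patj passed at 20 weeks only without knockout 1 (-1.47, adjusted p = 0.00271) among the alternatives tried.

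Of 10 genes for the turnover of angiomotins and LATS, such as tankyrases and NEDD4-type ubiquitin ligases, 0 were called at 20 weeks by edgeR, 0 had an unadjusted p below 0.05 and DESeq2 called 0. At 28 weeks 4 fell and 0 rose, with a median of -0.46. They were Nedd4l, a ligase that binds PPxY motifs (-1.19, SE 0.14, adjusted p = 0.0046), Siah2, a ligase that targets LATS2 (-0.76, SE 0.15, adjusted p = 0.0148), Usp9x, a deubiquitinase of angiomotins, and the tankyrase gene Tnks2. The count was 1 without control 2 or control 3, 2 without control 1 or knockout 2, and 1 with controls 2 and 3 summed, beside the same shares of all genes (7.09% without control 1 and 8.37% without knockout 2), and the call of Siah2 ended without control 2 (adjusted p = 0.0586) or control 3 (0.0526).

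Of 7 tested relatives of the 10 (the zyxin family, Ptpn21 and further FERM-domain genes), 1 was called higher at both ages, Frmd3. It was tested only because of its reads in knockouts, so its call is not support for a change, and with a minimum of 1 CPM in 3 libraries it was not tested. Frmd3 was at 7 to 10 reads in controls and 27 to 59 in knockouts at 20 weeks and at 11 and 15 to 45 reads at 28 weeks (log2 fold changes 2.36, adjusted p = 0.0208, and 1.80, adjusted p = 0.0437). Its call ended without control 1, 2 or 3 or knockout 3 at 20 weeks (adjusted p = 0.0613 to 0.1), and without control 1, 2 or 3 or knockout 2 or 3 at 28 weeks (0.0979 to 0.144), where it also ended with no filter on low counts (0.0608). Of 20 commonly used YAP and TAZ targets, 4 rose (Ccn2, Crim1, Igfbp3 and Tgfb2) and 2 fell (Ankrd1 and F3) at 20 weeks, with a median of 0.51. These counts were 2 to 4 and 0 to 3 when 1 library was left out, with none falling without control 1 or 2 or knockout 2 or 3. At 28 weeks 0 rose and 3 fell, with a median of -0.13. Ajuba and Wwc1 were 2 of those 3, and the third was Myof (-1.31). Without knockout 1, 2 rose and 5 fell. This target list holds 4 of the 10 regulators (Amotl2, Ajuba, Ptpn14 and Wwc1), so it is not separate from them.

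Over the 12 libraries, the correlation of log2 CPM between the 10 genes is given as a description, because genotype and age are shared by the libraries. Wwc1 followed Amotl1 (Pearson r = 0.976), Amot (0.965) and Ajuba (0.93). Amotl2 followed Ptpn14 (0.973) and Wwc2 (0.856), and Wwc1 and Amotl2 did not follow each other (0.029). Frmd6 followed none of the others closely (at most 0.399, with Ptpn14), and Limd1 was nearest to Ajuba (0.793). Of 14567 genes, the 3 most like Wwc1 were L1cam, an adhesion molecule (Pearson r = 0.995, Spearman rho = 0.993), Pdgfb, a growth factor (0.993 and 0.986), and Garnl3 (0.992 and 0.965). Those most like Amot were Creb5, a transcription factor (0.986 and 0.979), Slc4a4, a bicarbonate cotransporter (0.986 and 0.951), and Slc38a2, an amino acid transporter (0.986 and 0.986).

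Summed markers of simple epithelium and tubule were below all controls in every knockout at 20 weeks. At 28 weeks this held for knockouts 2 and 3 but not for knockout 1. The summed level of the 15 markers at 20 weeks was 4287, 7452 and 5637 CPM in controls and 2441, 439.5 and 372.7 in knockouts, and at 28 weeks 5760, 8718 and 8826 in controls and 7986, 154.8 and 877.4 in knockouts. Of the markers tested, 5 of 13 fell at 20 weeks and 3 of 14 at 28 weeks, and none rose. Without knockout 1 these counts were 11 of 13 and 6 of 14, and without any other library they were 3 to 5 and 2 to 4. The sum of 7986 CPM in knockout 1 at 28 weeks was mostly Krt8 (5545 CPM). Without Krt8 the sums were 4113, 6290 and 4165 against 1461, 385.3 and 312.8 at 20 weeks, and 5649, 6365 and 6449 against 2441, 124.9 and 681 at 28 weeks. Cdh1, which codes for E-cadherin, was at 805, 509 and 521 CPM in controls and 18.9, 2.18 and 38.0 in knockouts at 28 weeks, and at 291, 160.3 and 340.1 in controls and 252, 9.96 and 12.8 in knockouts at 20 weeks. Cdh16, a cadherin of kidney tubules, was at 644, 359.8 and 358.5 CPM in controls and 52.3, 20.9 and 71.2 in knockouts at 28 weeks. The tubule segment markers Umod and Slc12a1 were at or near 0 in all libraries, at most 1.29 and 1 CPM. Lrp2, of the same list, was low but higher than these in controls. It was at 1.46 to 8.94 CPM in controls and 0.62 to 3.485 in knockouts at 20 weeks, and at 3.07 to 5.52 and 0.33 to 4.08 at 28 weeks. Knockout 1 at 28 weeks had an Epcam level of 478 CPM, above the controls at 229 to 375. Its Cdh1, Cdh16 and marker sum without Krt8 were below all controls. Its levels of Wwc1 (74.2), Amot (63.3), Amotl1 (140.2) and Ajuba (141 CPM) were close to those of the other 2 knockouts. Knockout 1 at 20 weeks lay inside the control range for Cdh1 (252 CPM), Wwc1 (282) and Amotl1 (314), with its marker sum below all controls. Knockouts 2 and 3 at 20 weeks lay below all controls for each of these genes. The part of these epithelial markers in the fall of the 4 genes was not tested.

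**Figure D4:**
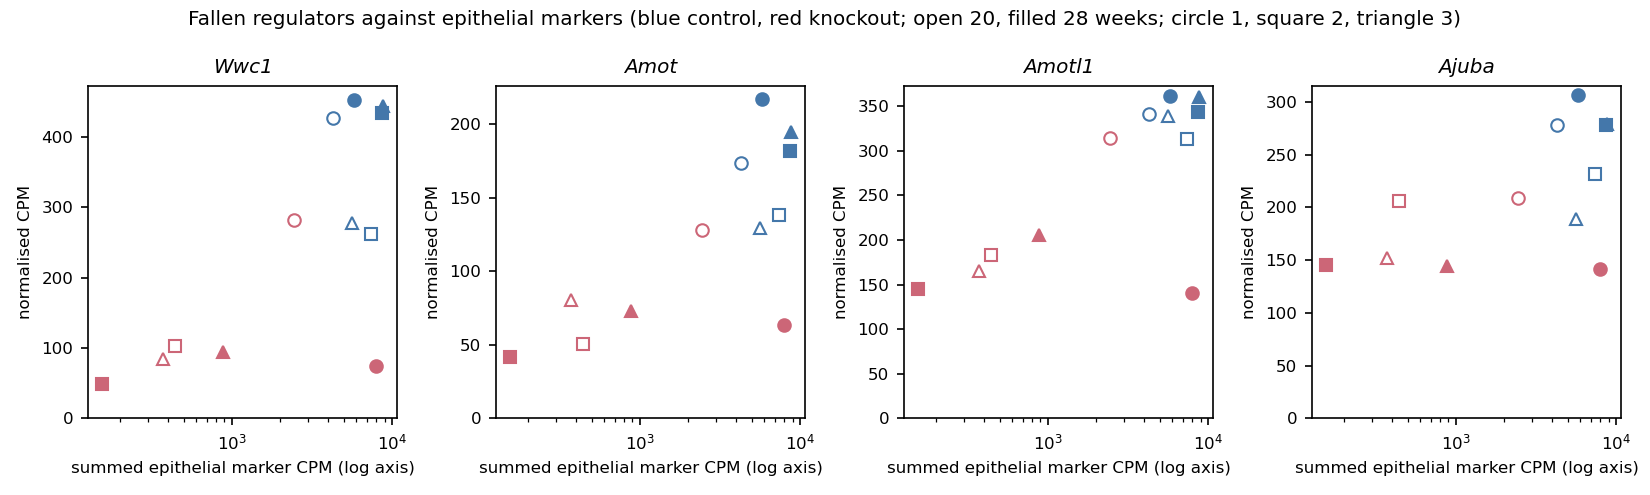
Normalised CPM of the 4 genes that fell at 28 weeks (vertical axis) against the summed CPM of simple epithelial and tubule markers (horizontal log axis) in the 12 libraries, blue for controls, red for knockouts, open for 20 and filled for 28 weeks. The filled red circle, knockout 1 at 28 weeks, has a marker sum of 7986 CPM, of which Krt8 gives 5545, and low levels of all 4 genes.

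Other marker lists moved as well. Contractile and perivascular markers rose in 8 of 10 at 20 weeks and in 5 of 10 at 28 weeks, where 1 fell; 5 to 8 and 3 to 6 rose when 1 library was left out. Podocyte markers rose in 7 of 10 and fell in 1 at 20 weeks, and rose in 0 and fell in 2 at 28 weeks. The number that rose at 20 weeks was 2 without control 2, 4 without control 3 and 3 without knockout 2 or 3. At 28 weeks 4 fell without knockout 2 and 1 without control 1, 2 or 3, and 1 rose without knockout 1. Leukocyte markers summed to 67.2 to 333 CPM in controls and 241 to 425 in knockouts at 20 weeks and to 67.4 to 82.8 and 595 to 817 at 28 weeks, with 0 of 6 and 2 of 6 tested called higher. That count at 28 weeks was 1 without control 2 or 3 or knockout 1 or 2. Most of the leukocyte sum in knockouts was Lyz2, with means of 295.5 CPM at 20 weeks and 650.6 at 28 weeks (109 and 49.4 in controls). At 20 weeks 4 of the 6 leukocyte markers tested had a negative log2 fold change (median -0.796), and at 28 weeks all 6 were positive (median 1.534). Endothelial markers summed to 56.8 to 69.4 and 63.1 to 98.8 CPM at 20 weeks and to 78.5 to 86.0 and 36.5 to 124 at 28 weeks, with 1 of 6 rising at 20 weeks and none called at 28 weeks by edgeR (1 at an unadjusted p below 0.05, and 1 by DESeq2). Cd3e, which defines T cells, was at or near 0 in all libraries. The part of these lists in the levels of the 10 regulators was not tested.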

How the data were processed

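Per the file headers, the authors deposited for both ages a table of raw read counts and a table of FPKM, with gene symbols; FPKM divides each count by 1 length per gene and by the raw column total. The build was GRCm38 (mm10), per the submitters' processing notes; the sources used here name no aligner, counter or strand setting. The ages were fitted separately in edgeR 4.0.16 under R 4.3.3 (TMM, filterByExpr, quasi-likelihood F test, no block), with Benjamini-Hochberg adjustment over all genes tested and a threshold of 0.05. Contrasts between ages came from 1 model of the 12 libraries. SE is the fold change over the square root of F. DESeq2 1.42.0, other scaling and filters, the replicate number as a block, left-out libraries and controls 2 and 3 at 28 weeks summed were alternatives. From each pathway list the text names genes called at both ages in 1 direction, or else the 2 with the smallest p at 28 weeks; others were named after their values were seen, and 1 gene is not reported here. Members and lists were chosen with earlier results of these data known. The scripts were tested on simulated data.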

Additional observations from a re-analysis of the deposited data

How the results depend on the processing

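Of 670 alternative fits of single regulators, 664 kept the side of the threshold, 4 passed where the reported fit did not and 2 no longer passed. No fit that passed had the opposite sign to the reported one. Among values that did not pass the sign could turn. At 28 weeks Amotl2 ran from -0.582 to 0.22, Ptpn14 from -0.476 to 0.297 and Frmd6 from -0.238 to 0.328. Leaving out 1 library gave 0 to 3 called regulators at 20 weeks, with 3 only without knockout 1, and 4 to 4 at 28 weeks. Over all genes these settings gave 517 to 2023 calls at 20 weeks against 1473, and 1266 to 3374 at 28 weeks against 3183. DESeq2 called 2430 genes at 20 weeks, and summing controls 2 and 3 at 28 weeks gave 1299. With the replicate block, 1 regulator was called at 20 weeks (Wwc1, -1.22, adjusted p = 0.0399) and 2 at 28 weeks, where Amotl1 (-1.14, adjusted p = 0.0605) and Ajuba (-1.001, adjusted p = 0.0554) no longer passed; over all genes the block gave 1164 and 332 calls. Same-numbered libraries did not deviate together (r = -0.1, 0.324 and -0.171 at 20 weeks, -0.566, -0.105 and -0.471 at 28 weeks), so the numbers are not taken as pairs. Depth limits none of the 10 regulators; 3 libraries a group limit the precision. The ratio tests with libraries left out, the ratio test with controls 2 and 3 at 28 weeks averaged, and the contrast between ages without both knockouts 1 were chosen after the data were seen.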

Other observations

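Controls 2 and 3 at 28 weeks were far more alike than any other pair within a group (mean chi-square of 4.8 per gene), so their closeness does not make control 1 the outlier. Control 1 at 28 weeks stood above both in a set of regulators and podocyte genes. It was at 687 CPM for Amotl2 against 305 and 321, at 273 for Ptpn14 against 124 and 126, and at 329 for Wwc2 against 240 and 259. In the same order, the podocyte gene Synpo was at 367 CPM against 99.2 and 99.7, and Podxl, which codes for podocalyxin, was at 582 against 286 and 297. Among the knockouts of that age, Synpo was at 48.6, 322 and 265 CPM and Podxl at 149, 437 and 362, with knockout 1 the lowest in both. Ptpn14 was likewise lowest in knockout 1, at 112 CPM against 145 and 205. At 20 weeks all knockouts were above all controls for Synpo (185, 118 and 106 CPM in controls and 313, 491 and 418 in knockouts).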
